A study of Mus musculus with 1248 samples.

Results

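The wells described here stand for myeloid progenitors and monocytes of mouse bone that came through a sort for tumour cells, though 2 of 82 came from the fat pad and 25 also held RNA of another lineage. They were chosen by their own RNA, so the values that follow for the choosing genes are a description. A well was taken if Mpo, Prtn3, F13a1 and Ccr2 together reached 200 CPM, which are the counts of a gene scaled to a total of 1000000 gene counts in the well. It also had to hold under 50 CPM of C1qa, 1000 CPM of Ltf, 100 CPM of Cxcr2, 100 CPM of Cd79a, 1000 CPM of Hba-a1 and Hbb-bs, and 500 CPM of Krt8 and Krt18, and to show at least 1000 detected genes and 50000 gene counts. Of 1122 wells outside culture that passed the depth limits, 83 met the rule. One pair among them held nearly the same counts and was joined, which left 82 member wells of 1116.

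The study injected the mouse mammary carcinoma lines 4T1 and 4T1.2, both carrying firefly luciferase and mCherry, into the heart of female BALB/c mice. Cells positive for mCherry were sorted one to a well from the hindlimbs and sequenced by a modified Smart-seq2 protocol, which reads full-length poly(A) RNA. The groups used here are 4T1 in bone at day 4, day 10 and day 16, 4T1.2 in bone at day 4, and 4T1 cells grown in the mammary fat pad to day 22. The labels call every sorted cell a tumour cell, whereas these wells carry blood cell genes with the epithelial keratins Krt8 and Krt18 together below 500 CPM by the rule. No animal or plate is named for a well, and the wells of a group therefore stand as 1 sample. For that reason no test was made, and every comparison between groups or classes is a description of these wells.

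Neutrophils and monocytes arise in marrow from shared granulocyte-monocyte progenitors. Early in the granulocyte branch the cells make the primary (azurophil) granule proteins, among them myeloperoxidase, encoded by Mpo, and the serine proteases proteinase 3, neutrophil elastase and cathepsin G, encoded by Prtn3, Elane and Ctsg. In the monocyte branch the cells gain Ccr2, the receptor for the chemokine CCL2 by which monocytes leave the marrow, together with Ly6c2, Csf1r, the receptor of macrophage colony-stimulating factor, and lysozyme, encoded by Lyz2. F13a1 encodes the A subunit of coagulation factor XIII and Ms4a6c a membrane protein of monocytes.

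The members were split at 200 CPM of Mpo and of Ccr2. Mpo alone passed this level in 12 wells, Ccr2 alone in 46, both in 17 and neither in 7. The limit is a point on a continuous scale: 6 members held between 100 and 400 CPM of Mpo, and 17 members held between 100 and 400 CPM of Ccr2. In the 12 Mpo-high wells Mpo lay between 2245 and 31662 CPM with a median of 15767 CPM. In the 17 wells with both genes it lay between 209 and 18744 CPM with a median of 1433 CPM, and in the 46 Ccr2-high wells the median was 3.09 CPM. Ccr2 had medians of 50.3 CPM in Mpo-high wells, 568 CPM in wells with both and 914 CPM in Ccr2-high wells. Since both genes are part of the sum that chose the members, their relation over the members is not read.

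**Figure D1:**
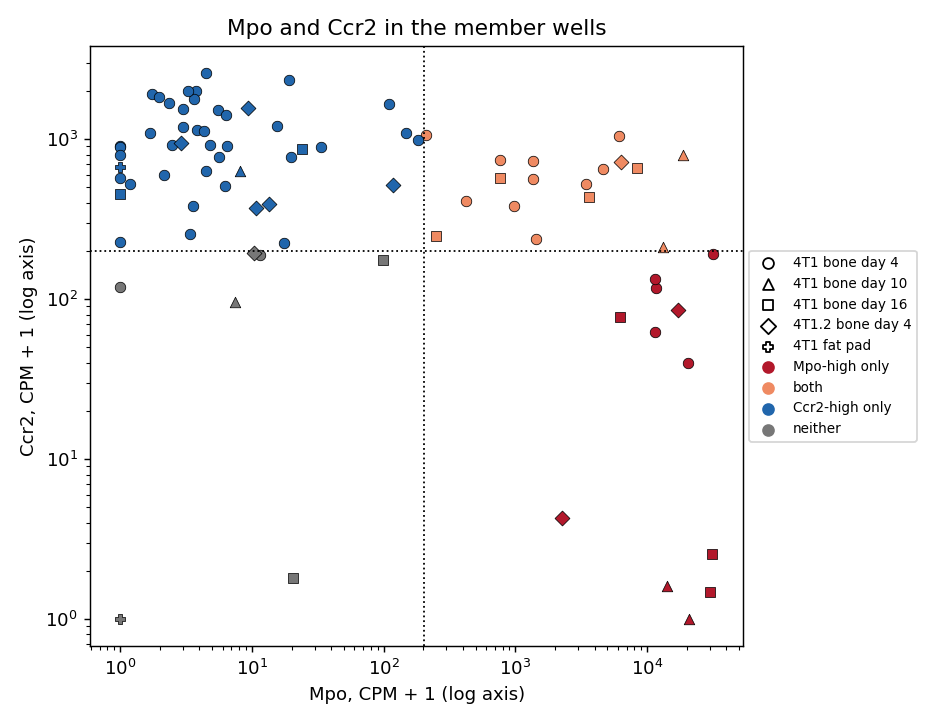
Mpo on the horizontal axis and Ccr2 on the vertical axis, both in CPM + 1 on log axes, with 1 point for each of the 82 member wells, coloured by class and shaped by group. Dotted lines mark 200 CPM; the 17 wells with both genes lie at the upper right, the 12 Mpo-high wells at the lower right and the 46 Ccr2-high wells at the upper left.

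The label was checked against markers of the other cells that the sort could hold. Of the 82 members, 25 carried at least 200 CPM of genes of another lineage, a limit chosen after the values were seen. Summed T and NK cell genes (Cd3e, Cd3g, Cd3d, Trac, Gzma and Ncr1) passed 200 CPM in 10 wells. Siglech, a plasmacytoid dendritic cell gene, passed it in 5 wells, and the MHC class II gene H2-Ab1 in 12. These wells were unevenly spread: 20 of the 46 Ccr2-high wells held such RNA, 1 of the 12 Mpo-high wells, none of the 17 wells with both, and 4 of the 7 with neither. Ccr2 is also made by activated T and NK cells and by dendritic cell precursors. The name monocyte therefore goes with 26 of the 46 Ccr2-high wells here. Of these 26, 24 came from 4T1 bone at day 4, 1 from 4T1 bone at day 16 and 1 from 4T1.2 bone. They thus describe mainly 1 group, whereas only 5 of the 12 Mpo-high wells came from 4T1 bone at day 4. Values of those 26 are given for part of the genes. The sums of S phase, G2 and M phase, nucleolar, ribosomal protein and interferon genes cover all 46. In the 26, Ms4a6c lay between 139 and 1553 CPM and Ly6c2 between 299.9 and 3283 CPM, whereas over all 46 both genes reached 0 CPM.

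The 82 members held between 377195 and 6480970 gene counts. Their mCherry RNA had a median of 1121 CPM in Mpo-high wells, 1344 CPM in wells with both and 1352 CPM in Ccr2-high wells, compared with 1205 CPM in the other host wells and 494 CPM in tumour wells. Among other host wells, the median was 29.6 CPM in wells with C1qa. The other reporter row, luciGFP, had a median of 0.699 CPM in the members and 0.867 CPM in the other host wells. In tumour wells its median was 65.7 CPM. In all, 6 pairs of 4T1 day 4 wells, including the 1 member pair (wells 183 and 184), agreed at r between 0.984 and 0.994, whereas the highest correlation of any other member with another well was 0.770. They were joined as their mean. The other host wells, 622 after joining, had blood cell or haemoglobin RNA and failed the rule. They included 88 wells with C1qa, 182 wells with neutrophil genes, 163 B cell wells, 17 erythroid wells, 136 wells past several limits and 36 past none of them.

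For each limit of the rule, the nearest value inside was taken over the members. The nearest value outside was taken over the wells which that limit alone kept out. Those wells numbered 29 for C1qa, 14 for Ltf, 8 for Cxcr2, 21 for Cd79a, 2 for haemoglobin and 36 for the keratins. The gaps therefore rest on few wells and do not describe the spread of a gene over all wells. For the sum of the 4 choosing genes, the nearest well outside held 187 CPM and the nearest inside 207 CPM, and 49 wells were kept out by this limit alone. The nearest values outside and inside were 137 and 27.8 CPM for C1qa, 1896 and 979 CPM for Ltf, 153 and 83.5 CPM for Cxcr2, and 131 and 28.3 CPM for Cd79a. They were 2731 and 696 CPM for haemoglobin, and 1232 and 448 CPM for the keratins.

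To place the choosing genes and their partners in the genome, the positions of the GENCODE M21 annotation on GRCm38, the assembly also called mm10, were used. Mpo spans chr11:87793581-87804413 on the plus strand, Prtn3 chr10:79874476-79883174 on the plus strand and Elane chr10:79886247-79888215 on the plus strand, so that Elane directly follows Prtn3. Ctsg spans chr14:56099881-56102574 on the minus strand, F13a1 chr13:36867178-37050244 on the minus strand, Ccr2 chr9:124101950-124113557 on the plus strand and Ms4a6c chr19:11469366-11482192 on the plus strand. Prtn3, which is a choosing gene, Elane and Ctsg had their highest medians in the Mpo-high wells, and Ly6c2 and Ms4a6c went with the monocyte genes. The bases 250 to 71 before the RefSeq start of each (GRCm38.p6) were therefore read for letters of myeloid factor motifs. The windows are Prtn3 at chr10:79879417-79879596 (plus), Elane at chr10:79886062-79886241 (plus), Ctsg at chr14:56102645-56102824 (minus), Ly6c2 at chr15:75112042-75112221 (minus) and Ms4a6c at chr19:11469118-11469297 (plus), each written 5′ to 3′ on the strand of the gene. Capitals mark every match on either strand to GAGGAA, the core of the PU.1 motif, to TTNNGNAA (C/EBP), to TGNGGT (RUNX) or to TAACNG (MYB).
Prtn3: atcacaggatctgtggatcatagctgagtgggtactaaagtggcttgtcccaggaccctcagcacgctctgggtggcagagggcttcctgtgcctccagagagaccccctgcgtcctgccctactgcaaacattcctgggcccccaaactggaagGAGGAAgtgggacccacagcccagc
Elane: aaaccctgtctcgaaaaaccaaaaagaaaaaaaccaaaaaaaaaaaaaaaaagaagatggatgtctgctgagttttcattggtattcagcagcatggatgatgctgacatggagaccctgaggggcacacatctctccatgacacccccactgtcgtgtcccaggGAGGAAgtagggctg
Ctsg: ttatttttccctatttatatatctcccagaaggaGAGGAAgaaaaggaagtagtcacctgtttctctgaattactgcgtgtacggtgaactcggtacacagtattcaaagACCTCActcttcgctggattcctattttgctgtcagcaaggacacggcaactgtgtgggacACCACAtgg
Ly6c2: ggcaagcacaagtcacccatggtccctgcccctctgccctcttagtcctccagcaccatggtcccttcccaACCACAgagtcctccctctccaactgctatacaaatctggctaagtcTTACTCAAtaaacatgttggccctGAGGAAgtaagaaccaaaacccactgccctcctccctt
Ms4a6c: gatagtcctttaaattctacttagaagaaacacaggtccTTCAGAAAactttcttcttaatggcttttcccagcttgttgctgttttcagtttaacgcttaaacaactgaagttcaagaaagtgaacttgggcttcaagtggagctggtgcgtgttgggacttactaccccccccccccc
In these windows GAGGAA stood 95 to 90 bases before the start of Prtn3, 85 to 80 before Elane, 216 to 211 before Ctsg and 108 to 103 before Ly6c2, each time on the strand of the gene. Letters of the RUNX motif lay on the opposite strand at 140 to 135 and 79 to 74 bases before Ctsg and at 179 to 174 before Ly6c2. Letters of the C/EBP motif lay at 132 to 125 before Ly6c2 on the opposite strand, and at 211 to 204 before Ms4a6c on the strand of the gene. The window of F13a1 held none of the 4. Of 8 genes looked for, 6 had a window that could be used, clear of the exons of these genes. Mpo and Ccr2 had none. Another RefSeq start of Ly6c2 has an overlapping window, which held the same 3 matches. The Prtn3 window lies inside the GENCODE span of Prtn3 given above, because the RefSeq start used lies within that span. Of 32507 windows of the same 180 bases over all RefSeq genes, 17.3% held GAGGAA, 30.0% the C/EBP letters, 31.5% the RUNX letters and 15.0% the MYB letters, so that none of these matches is rare. A match is a description of letters, and no binding was measured.

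In the Mpo-high wells the primary granule genes made up a large share of the RNA. The 15 listed primary granule genes together had a median of 36963 CPM (5817 to 104624 CPM), compared with 10215 CPM in wells with both, 4887 CPM in Ccr2-high wells and 7355 CPM in the wells with neutrophil genes. Mpo, which made the classes, and Prtn3 hold much of this sum. The other 13 genes had medians of 16457, 8101 and 4736 CPM in Mpo-high wells, wells with both and Ccr2-high wells. Prtn3 lay between 392 and 13561 CPM in the 12 Mpo-high wells with a median of 3847 CPM. Its median was 1749 CPM in wells with both and 125 CPM in Ccr2-high wells, or 340 CPM in the 26 without RNA of another lineage. Prtn3 thus remained detectable at a moderate level in most Ccr2-high wells.

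Elane and Ctsg, which the rule did not use, fell to lower medians than the choosing gene Prtn3 at the Ccr2-high end. Ctsg lay between 349 and 13437 CPM in Mpo-high wells with a median of 3184 CPM, had a median of 761 CPM in wells with both, and a median of 0.646 CPM in Ccr2-high wells. Elane had medians of 4130, 433 and 0.957 CPM in the same order. It was uneven within the Mpo-high class, from 2.21 to 25149 CPM. The 2 lowest Mpo-high wells were 4T1 day 4 well 196 at 2.21 CPM beside 11538 CPM of Mpo, and 4T1.2 day 4 well 29 at 8.06 CPM beside 2245 CPM of Mpo. Ms4a3, a membrane protein gene of granulocyte-monocyte progenitors, had medians of 895 CPM in Mpo-high wells and 50.9 CPM in wells with both, and no Ccr2-high well held more than 2.80 CPM. Over the 82 members Mpo had a Spearman's rho of 0.86 and a Pearson's r of 0.90 with Ctsg, and of 0.75 and 0.80 with Elane. With Prtn3 they were 0.76 and 0.77. These are given without a p since wells of a group share their sort. Mpo and Prtn3 are part of the sum that chose the members, so these values describe the chosen wells only and are not read further.

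Not all genes of the list followed Mpo. Plac8, which is made in progenitors and monocytes alike, had medians of 1647 CPM in Mpo-high wells, 1279 CPM in wells with both and 1212 CPM in Ccr2-high wells, and its ranges overlapped throughout. Calr, the chaperone calreticulin on which myeloperoxidase folds, had medians of 2155, 851 and 541 CPM.

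The monocyte genes ran the other way. The 24 listed monocyte genes had a summed median of 3406 CPM in Mpo-high wells, 19141 CPM in wells with both and 37065 CPM in Ccr2-high wells, or 51142 CPM in the 26 without other-lineage RNA. Without Ccr2 and F13a1 the medians of the other 22 genes were 2932, 17100 and 34711 CPM. The C1qa wells had 29405 CPM and the B cell wells 1400 CPM. Lyz2 had medians of 324 CPM (142 to 7498 CPM) in Mpo-high wells, 3440 CPM (185 to 43502 CPM) in wells with both and 15489 CPM (46.8 to 80662 CPM) in Ccr2-high wells. In the 26 it lay between 839 and 59098 CPM. F13a1 was highest in wells with both, at a median of 1622 CPM, compared with 219 CPM in Mpo-high and 928 CPM in Ccr2-high wells. The 26 Ccr2-high wells had a median of 1286 CPM, and their range overlapped that of the wells with both. Ly6c2 had medians of 305, 1810 and 927 CPM, with 1329 CPM in the 26. Wells with both genes thus held monocyte genes at levels close to those of the 26 for F13a1 and Ly6c2, and between the classes for Lyz2.

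**Figure D2:**
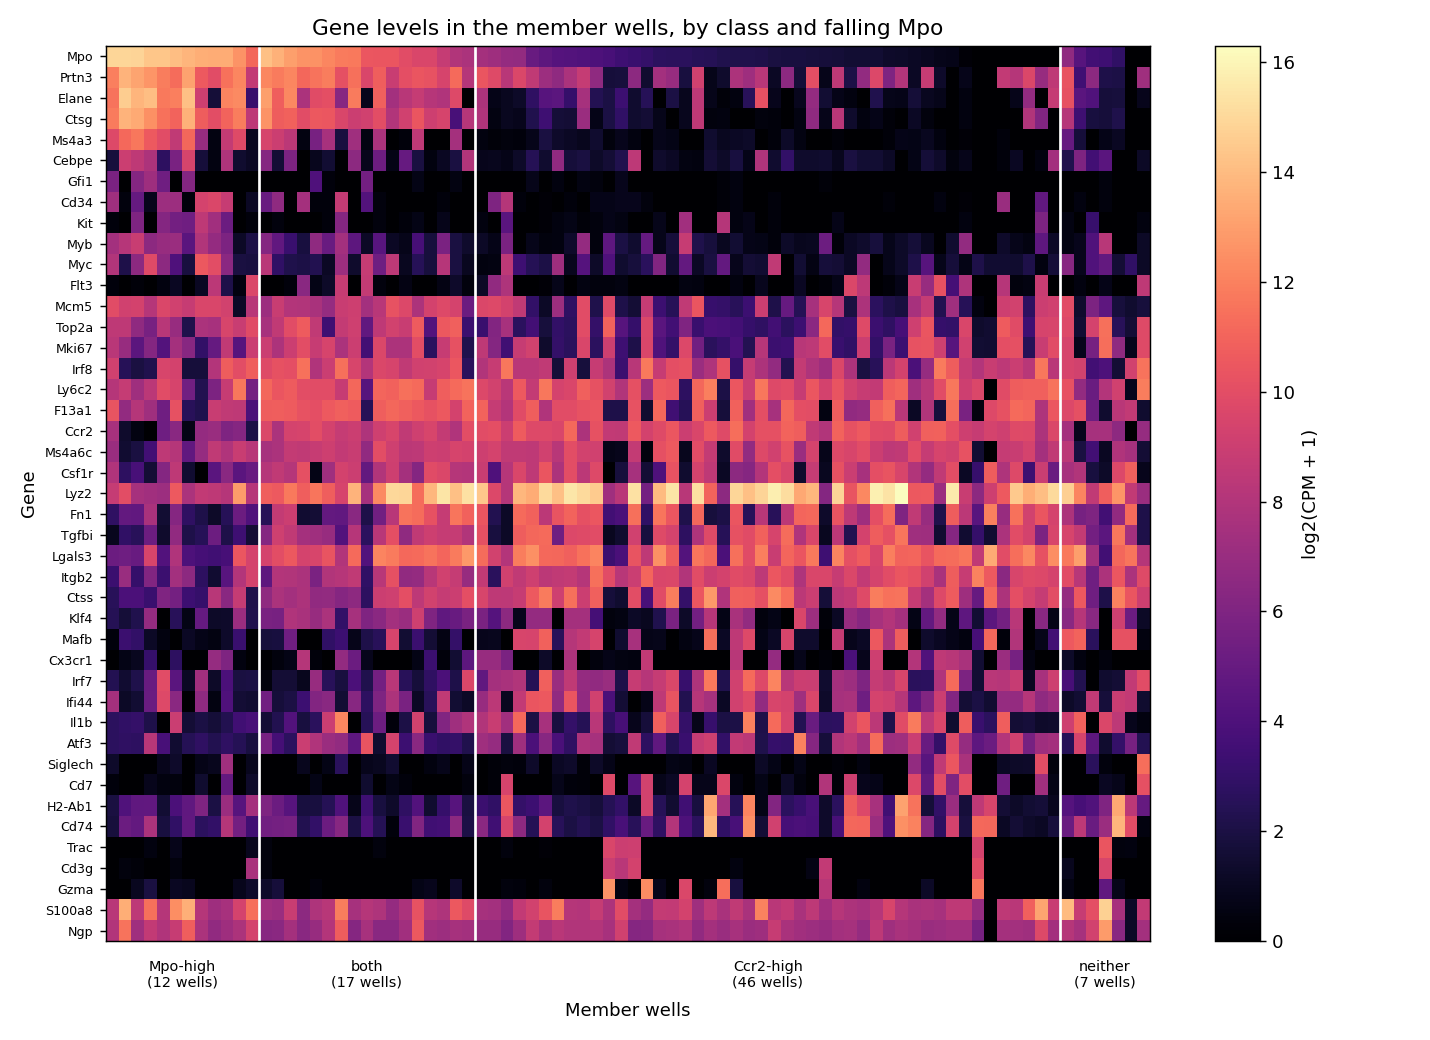
Levels of listed genes (rows) in the 82 member wells (columns), as log2(CPM + 1) by colour, with the wells ordered by class and by falling Mpo. Primary granule genes fade from the Mpo-high wells to the Ccr2-high wells, Lyz2 and other monocyte genes brighten the opposite way, and part of the Ccr2-high wells lack the monocyte genes.

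For a comparison across all genes, the counts of the 5 Mpo-high and 37 Ccr2-high wells of 4T1 bone at day 4 were summed, the only group with at least 5 wells of both classes. Of 7794 genes at 20 CPM or more on the higher side, 1800 (23.1%) were at least 2-fold higher in the Mpo-high wells and 1688 (21.7%) at least 2-fold lower, on the scale of log2(CPM + 5). The split depends on the scaling: with edgeR's TMM factors it was 1301 higher and 2108 lower, and with DESeq2's size factors 1368 and 2032. Mpo itself, by which the classes were made, stood at 18004 CPM (exact 95% Poisson interval 17935 to 18073 CPM) against 17.4 CPM (16.6 to 18.2 CPM). Such intervals cover the counting of reads only and are far narrower than the spread between wells. They were 2412 to 2463 CPM against 71.3 to 74.5 CPM for Elane, 414 to 435 CPM against 6.64 to 7.65 CPM for Cd34, and 319 to 338 CPM against 19433 to 19485 CPM for Lyz2.

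Among stem and progenitor genes, 13 of 16 measured were at least 2-fold higher in the Mpo-high wells and 1 lower, with a median log2 ratio of 2.35. For the lists, genes from 5 CPM were taken, and of 10545 such genes 21.7% were at least 2-fold higher and 24% at least 2-fold lower, with a median of 0.07. Cd34, a surface glycoprotein of blood progenitors, held 142, 153, 452, 680 and 792 CPM in the 5 Mpo-high wells of 4T1 at day 4, and each value lay above the median of 0 CPM of all Ccr2-high wells. Kit, the receptor of stem cell factor, held 0.29, 36.0, 73.1, 162 and 366 CPM. Its summed level was 119.6 against 17.7 CPM, and in the 26 Ccr2-high wells no value passed 0.775 CPM. Myb, a transcription factor of progenitors, stood at 144 against 22.1 CPM, Myc at 554 against 23.5 CPM and Muc13, a membrane mucin, at 108 against 0.0996 CPM. Kit and Myc rested in part on well 83, without which they stood at 57.8 and 324 CPM. Flt3, another receptor of early progenitors, stood at 52.7 against 102 CPM. Of the 5 Mpo-high wells, well 196 held 332 CPM of Flt3 and the other 4 no more than 3.32 CPM, and without well 196 the level was 1.30 CPM.

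In the 5 Mpo-high wells of day 10 and day 16, Cd34 did not pass 29.0 CPM. Over all 12 Mpo-high wells, Cd34 had a median of 85.3 CPM and Kit of 38.5 CPM, each at 20 CPM or more in 7 wells. In wells with both genes Cd34 had a median of 0.257 CPM and Kit of 0 CPM.

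Among the 15 primary granule genes, 10 were at least 2-fold higher in the Mpo-high wells of 4T1 at day 4 and 2 lower, with a median log2 ratio of 2.14. Without Mpo and Prtn3 it was 8 higher and 2 lower of 13, with a median of 1.56. Ms4a3 stood at 504 against 0.480 CPM, Ctsg at 2307 against 40.6 CPM and Elane at 2438 against 72.8 CPM. Other genes furthest higher were Adgrl4, an adhesion receptor, at 196 against 0.127 CPM, Serpine2, a protease inhibitor, at 109 against 0.362 CPM, or 31.3 CPM without well 3, and Grwd1, a ribosome assembly factor, at 150 against 3.28 CPM. For Adgrl4 1 well set much of the ratio: the log2 value was 5.30, and 3.31 without well 83. Serpina3g and Serpina3f, 2 serine protease inhibitor genes, came almost wholly from well 3, whose interferon genes Irf7 and Ifi44 stood at 1011 and 865 CPM. Their log2 ratios were 4.22 and 4.20 with that well, and 0.23 and 0.69 without it.

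Among the 24 monocyte genes, 19 were at least 2-fold lower in the Mpo-high wells and none higher, with a median log2 ratio of −3.20, and without Ccr2 and F13a1 it was 18 of 22. Fibronectin, Fn1, stood at 3.85 against 997 CPM, galectin 3, Lgals3, at 18.1 against 2376 CPM, Lyz2 at 328 against 19459 CPM and Tgfbi, a matrix protein induced by TGF-beta, at 7.91 against 606 CPM, or 2.61 CPM without well 196. Thbs1, thrombospondin 1, was furthest lower at 2.75 against 1286 CPM. The highest of the 5 Mpo-high wells held 4.83 CPM of Thbs1, 6.27 CPM of Fn1 and 35.1 CPM of Lgals3. The 37 Ccr2-high wells reached down to 0, 1.44 and 9.57 CPM, so the ranges overlapped at the low end for these 3 genes. Of these 37 wells, 13 held other-lineage RNA. Also far lower were the integrin beta 2 chain Itgb2 at 9.76 against 667 CPM, the chemokine receptor Ccr1 at 1.72 against 287 CPM and the chemokine Ccl6 at 0.894 against 243 CPM. The log2 ratios of Thbs1, Fn1, Ccr1 and Ccl6 were −7.38, −6.82, −5.44 and −5.39. Without the wells holding other-lineage RNA they were −7.89, −7.25, −5.76 and −5.61.

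Inflammatory and immediate early genes were likewise lower in the Mpo-high wells. Of 20 measured inflammatory genes 17 were at least 2-fold lower and none higher, with a median log2 ratio of −2.86, and of 26 immediate early genes 21 were lower and 2 higher, with a median of −2.31. Il1b, the cytokine interleukin 1 beta, stood at 3.16 against 557 CPM, with the highest of the 5 Mpo-high wells at 5.42 CPM. It was uneven among Ccr2-high wells, with a median of 8.10 CPM and a highest value of 4120 CPM over all 46. Nr4a1, an orphan nuclear receptor induced within minutes of stimulation and known to shape monocyte fate, stood at 522 against 3086 CPM, or 272 CPM without well 196, and Atf3, a stress-induced factor, at 6.81 against 418 CPM. Such genes are also induced by tissue handling, and its part was not tested.

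Among the 20 myeloid transcription factors, 3 were higher and 10 lower in the Mpo-high wells, with a median log2 ratio of −0.92. Spi1, which encodes PU.1, stood at 359 against 632 CPM, and Irf8, which directs monocyte fate, at 691 against 560 CPM, both within 2-fold. Without well 380, which held 1669 CPM of Irf8, the direction of Irf8 turned, at 403 CPM. Klf4, needed for monocyte formation, stood at 7.63 against 114 CPM and Cebpb at 12.9 against 356 CPM. Gfi1, a factor of the granulocyte branch, stood at 20.3 against 0.0724 CPM, with 40.1 and 55.0 CPM in wells 3 and 55 and 0 CPM in the other 3 Mpo-high wells. Cebpe, another, stood at 54.1 against 15.8 CPM, with well 380 at 228 CPM. The other 4 wells held 0.441 to 5.90 CPM, and without well 380 the direction turned, at 2.85 against 15.8 CPM. Of the receptors, Csf1r stood at 94.8 against 426 CPM, or 46.5 CPM without well 55. Csf3r, the receptor of granulocyte colony-stimulating factor, stood at 120 against 141 CPM, and its log2 ratio lay between −0.53 and 0.02 with single Mpo-high wells left out.

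The lists of other cell types depended on the Ccr2-high wells with other-lineage RNA. With all wells, 9 of 10 measured T and NK cell genes, 8 of 13 dendritic cell genes and 6 of 9 MHC class II genes were at least 2-fold lower in the Mpo-high wells. The median log2 ratios were −2.20, −1.11 and −1.59. Without those wells the medians were 4.04, 1.13 and 1.03. Those wells were set apart by genes of these same lists, so the turn follows at least in part from that choice. It is not a separate result. Nkg7 stands in both the T and NK cell list and the primary granule list.

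Genes of DNA replication were high in the Mpo-high wells, while genes of mitosis were highest in wells with both. The 24 listed S phase genes had summed medians of 6638 CPM (1526 to 9563 CPM) in Mpo-high wells, 4040 CPM (1657 to 10196 CPM) in wells with both and 1101 CPM (75.1 to 8910 CPM) in Ccr2-high wells. The neutrophil wells had a median of 230 CPM and the B cell wells, which include dividing precursors, 6107 CPM. The 28 genes of G2 and M phase had medians of 2216 CPM in Mpo-high wells, 5379 CPM in wells with both and 735 CPM in Ccr2-high wells. Mcm5, a subunit of the replicative helicase, had medians of 600 CPM, 305 CPM and 20.4 CPM, and 11 of 12 Mpo-high wells held 20 CPM or more. Mki67, a marker of dividing cells, had medians of 75.8, 451 and 31.6 CPM, and Birc5, a mitotic gene, of 109, 307 and 6.11 CPM. The Ccr2-high wells spread widely in both sums, from wells near the bottom of all members to wells at 8910 CPM of S phase genes and 15134 CPM of G2 and M phase genes. In the 4T1 day 4 comparison, 16 of 24 S phase genes were at least 2-fold higher in Mpo-high than in Ccr2-high wells and 1 was lower, whereas of 28 G2 and M phase genes 1 was higher and 5 lower, with a median of −0.10.

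**Figure D3:**
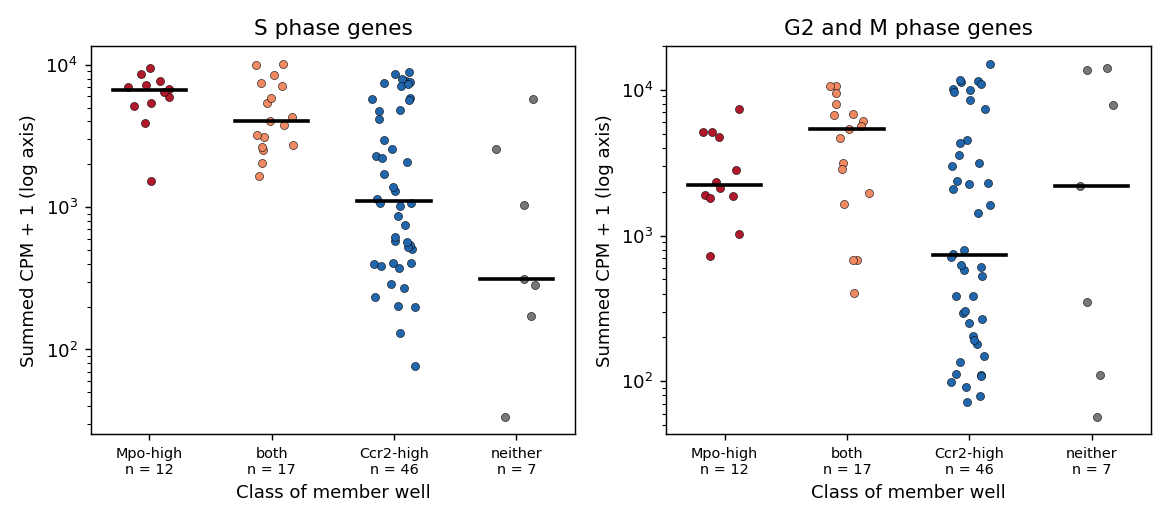
Summed CPM + 1 (log axis) of the 24 S phase genes (left) and the 28 G2 and M phase genes (right) in each member well, by class, with bars at the medians. The Mpo-high wells lie between 1526 and 9563 CPM for S phase genes, and the Ccr2-high wells spread from 75.1 to 8910 CPM.

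Genes of ribosome assembly went with Mpo as well. Of 14 nucleolar genes 11 were at least 2-fold higher in the Mpo-high wells of 4T1 at day 4 and none lower, with a median log2 ratio of 2.06. Ncl, nucleolin, stood at 1216 against 304 CPM and Nop56 at 406 against 180 CPM. Over all groups the 14 genes had summed medians of 3969, 2373 and 1114 CPM in Mpo-high wells, wells with both and Ccr2-high wells. The 32 cytosolic ribosomal protein genes had summed medians of 33742, 34338 and 22462 CPM. Thinned to 500000 gene counts, a well showed a median of 8189.5 detected genes in the Mpo-high class, 7216 in wells with both and 5868.5 in the Ccr2-high class. Unthinned the medians were 10526, 9715 and 9363.5.

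Type I interferon response genes were higher in the Ccr2-high wells. At day 4 in 4T1 bone, 22 of 30 were at least 2-fold lower in the Mpo-high wells and none was higher, with a median log2 ratio of −1.34. Over all groups the 30 genes had summed medians of 1056 CPM (35.7 to 6625 CPM) in Mpo-high wells, 2329 CPM (413 to 10774 CPM) in wells with both and 5251 CPM (170 to 20462 CPM) in Ccr2-high wells. Irf7, the factor that amplifies the interferon response, had medians of 3.92 CPM, 4.98 CPM and 246 CPM, and Ifi27l2a, an interferon-induced gene, of 5.35, 275 and 986 CPM. Ifi27l2a was at 103 CPM or more in each of the 26 Ccr2-high wells without other-lineage RNA. Single wells with low monocyte genes also held the response, such as the Mpo-high well 3 already named. Plasmacytoid dendritic cells hold Irf7 at rest, and 4 of the 46 Ccr2-high wells carried Siglech at 200 CPM or more.

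To compare the members with the rest of the host cells, ratios were taken within each of the 4 bone groups and averaged. The groups held 54 members and 294 other wells for 4T1 at day 4, 6 and 36 at day 10, 11 and 109 at day 16, and 9 and 175 for 4T1.2 at day 4. Of 7519 genes, 368 (4.89%) were at least 2-fold higher in the members and 569 (7.57%) at least 2-fold lower. With TMM factors the counts were 241 and 723. The rule's own genes led both ends, with Mpo at 6200 against 386 CPM and Ltf, lactoferrin, at 96.9 against 5869 CPM.

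Ctsg stood at 2215 against 88.6 CPM and was furthest higher among the named genes outside the rule. The neuregulin gene Nrg1, a growth factor of the ERBB receptors, came next at 136 against 19.8 CPM. It lay between 0 and 1536 CPM over the members, and its medians were 21.4 CPM in Mpo-high wells, 137 CPM in wells with both and 63.6 CPM in Ccr2-high wells, so that it went with the monocyte side. F10, coagulation factor X, stood at 155 against 38.2 CPM and had medians of 25.1, 145 and 93.8 CPM in the 3 classes, with 284 CPM in the 26 Ccr2-high wells. Ramp1, a receptor partner for the neuropeptide CGRP, stood at 243 against 57.3 CPM and went with the progenitor side, with medians of 492 CPM in Mpo-high wells, 228 CPM in wells with both and 32.2 CPM in Ccr2-high wells. All 12 Mpo-high wells held at least 172 CPM of Ramp1. B4galnt1, a ganglioside synthase, stood at 286 against 64.1 CPM, with class medians of 318, 147 and 49.2 CPM. Ahnak, a large scaffold protein, stood at 452 against 133 CPM and was higher towards the monocyte side, with medians of 16.1, 287 and 563 CPM. Camkk2, a calcium-dependent kinase, stood at 76.1 against 19.5 CPM, with medians of 13.9, 81.1 and 1.55 CPM, and 83.5 CPM in the 26. Vps37b, an ESCRT subunit, owed its place to the wells with other-lineage RNA: its log2 ratio was 1.72 with them and −0.50 without.

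By list, 10 of 15 primary granule genes and 8 of 24 monocyte genes were at least 2-fold higher in the members than in other host wells and none was lower. The median log2 ratios were 2.11 and 0.60. The choosing genes are among them by rule: without Mpo and Prtn3 it was 8 of 13 primary granule genes with a median of 1.95, and without F13a1 and Ccr2 6 of 22 monocyte genes with a median of 0.56. Of all 10776 genes from 5 CPM, 3.72% were higher and 7.58% lower, with a median of 0.09. Irf8 and Plac8 had log2 ratios of 1.24 and 1.95, and Ly6c2 of 1.65. Of 24 S phase genes 4 were higher and none lower, with a median of 0.41, and of the 28 G2 and M phase genes none passed 2-fold either way, with a median of 0.34. The neutrophil, B cell, erythroid and macrophage lists were low, as the rule sets: 14 of 16 secondary granule and neutrophil genes, 15 of 15 B cell genes, 14 of 15 erythroid genes and 10 of 18 macrophage genes were at least 2-fold lower. Of 14 T and NK cell genes 7 were higher and 1 lower, with a median log2 ratio of 1.04, which turned to −1.42 without the members holding other-lineage RNA. Those members were set apart in part by genes of this list.

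The members took different shares of the wells in each group. They were 54 of 493 wells in 4T1 bone at day 4, or 11.0% (exact 95% binomial interval 8.34 to 14.0%), 6.25% of 96 wells at day 10 (2.33 to 13.1%) and 5.76% of 191 wells at day 16 (2.91 to 10.1%). In 4T1.2 bone at day 4 they were 3.75% of 240 wells (1.73 to 7.00%), and in the fat pad 2.08% of 96 wells (0.253 to 7.32%). Among the classes, the Ccr2-high wells differed most in share, with 7.51% of 4T1 wells at day 4 (5.34 to 10.2%). Their share was 1.04% at day 10 with an interval from 0.0264 to 5.67%, and 1.05% at day 16 with an interval from 0.127 to 3.73%. In 4T1.2 it was 2.08%, from 0.680 to 4.79%. The Mpo-high wells were 1.01%, 2.08%, 1.57% and 0.833% in the same order, with intervals that overlapped, and none of the 96 fat pad wells was Mpo-high, for which the exact interval reaches 3.77%. A count of 0 taken as fewer than 3 wells allows up to 3.125%. Of host wells alone the members were 15.5% (11.9 to 19.8%) of 348 in 4T1 bone at day 4, 14.3% (5.43 to 28.5%) of 42 at day 10 and 9.17% (4.67 to 15.8%) of 120 at day 16. They were 4.89% (2.26 to 9.08%) of 184 in 4T1.2 and 20% (2.52 to 55.6%) of 10 in the fat pad. With this denominator day 10 lay close to day 4. These intervals cover counting error only. The sort on mCherry and the qPCR limit on mCherry after it, per the labels' protocols, stand between these shares and the marrow, and their part was not tested.

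**Figure D4:**
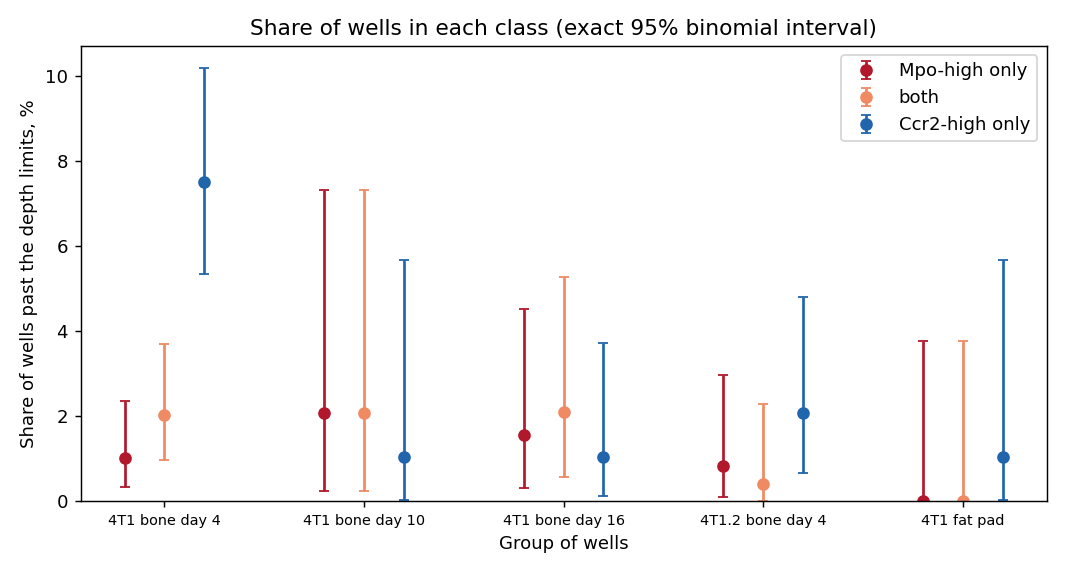
Share of the wells past the depth limits that were Mpo-high, held both genes or were Ccr2-high, in percent, for the 5 groups, with exact 95% binomial intervals. The Ccr2-high share of 7.51% in 4T1 bone at day 4 stands above the 1.04 to 2.08% of the other groups.

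The members of 4T1.2 bone were few, and part of them carried T cell RNA. Of the 9 wells, 2 were Mpo-high, 1 held both genes, 5 were Ccr2-high and 1 neither. T and NK cell genes passed 200 CPM in 5 of the 9, compared with 3 of 54 in 4T1 at day 4. Trac, the constant chain of the T cell receptor alpha, held 0, 0.32, 523, 530 and 769 CPM in the 5 Ccr2-high wells of 4T1.2, and 0 CPM in all 37 of 4T1. Well 46 also held 6247 CPM of the cytotoxic protease gene Gzma. Well 119 carried 530 CPM of Trac beside 40552 CPM of Lyz2, 2749 CPM of Fn1 and 1225 CPM of F13a1, so that T cell and monocyte genes stood in the same well. Well 192 was the only Ccr2-high well of 4T1.2 without RNA of another lineage. It held 59098 CPM of Lyz2, 951 CPM of Ccr2 and 1889 CPM of F13a1, and lay within the range of the 4T1 wells for Lyz2 and F13a1.

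Across all genes, 1510 of 7667 (19.7%) were at least 2-fold higher in the 5 Ccr2-high wells of 4T1.2 than in the 37 of 4T1 and 1925 (25.1%) at least 2-fold lower. The genes furthest higher were those of T cells, among them Bcl11b, a T cell transcription factor, at 448 CPM against none in the 4T1 wells (upper Poisson limit 0.0334 CPM), and Cd247, a chain of the T cell receptor complex, at 441 against 2.76 CPM, and 11 of 12 measured T and NK cell genes were higher, beside 17.4% higher and 32.5% lower of the 10197 genes from 5 CPM. Those furthest lower included Neat1 at 19.9 against 1184 CPM, Nfe2l2, the NRF2 factor of the oxidative stress response, at 0.643 against 235 CPM, and Trem1, a receptor of activated monocytes and neutrophils, at 4.42 against 321 CPM. With 3 of 5 wells carrying T cell genes, the line and the kind of cell cannot be told apart in this comparison. The 2 Mpo-high wells of 4T1.2 were too few for a comparison. They held 2740 and 5561 CPM of S100a8, compared with 151 to 301 CPM in the 5 Mpo-high wells of 4T1 at the same day. Of the 2, 1 carried T and NK cell genes at 200 CPM or more, and none of the 5 did.

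For the later days, the 7 wells of 4T1 bone at day 16 with at least 200 CPM of Mpo (3 Mpo-high and 4 with both genes) were set against the 15 at day 4 (5 and 10). The day 16 wells held more RNA of granule and neutrophil genes and less of interferon genes. Of 7418 genes, 779 (10.5%) were at least 2-fold higher at day 16 and 1005 (13.5%) at least 2-fold lower. Mpo overlapped between the days: its lowest, median and highest well were 248, 6255 and 30982 CPM at day 16, and 209, 3424 and 31662 CPM at day 4. The summed level was 14929 CPM (14873 to 14984 CPM) against 7216 CPM (7191 to 7241 CPM), with 3 of 7 wells Mpo-high at day 16 and 5 of 15 at day 4.

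Of the 15 primary granule genes 10 were at least 2-fold higher at day 16 and none lower, with a median log2 ratio of 1.604. Mpo and Prtn3 are choosing genes, and Mpo also picked the wells of both days. Without these 2 genes it was 8 of 13 higher and none lower, with the same median of 1.604. Of all 10231 genes from 5 CPM, 12.3% were higher and 15.9% lower, with a median of −0.03. Elane had a median of 534 CPM (0 to 4391 CPM) at day 4, 12708 CPM (1803 to 18636 CPM) in the 4 wells of day 10 and 4893 CPM (78.8 to 25149 CPM) at day 16, with overlapping ranges. The summed Elane level was 9310 against 1250 CPM, or 5987 CPM without well 132. Prss57, a serine protease of primary granules, stood at 393 against 24.7 CPM. It was uneven at day 16, with 227 CPM or more in the 3 Mpo-high wells and 51.4 CPM or less in the 4 with both genes. The 16 secondary granule and neutrophil genes, which belong to a later step of the granulocyte branch, were at least 2-fold higher in 12 cases and lower in none, with a median log2 ratio of 1.90. Their sum lay between 922 and 3557 CPM in the 15 wells of day 4 and between 3292 and 27404 CPM in the 7 of day 16. For comparison, the neutrophil wells of all groups had a median of 240241 CPM.

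S100a9, a calcium-binding protein of neutrophils and monocytes, lay between 78.1 and 209 CPM at day 4 with a median of 124 CPM. At day 16 it lay between 175 and 8666 CPM with a median of 433 CPM, and the ranges overlapped at the low end. Its log2 ratio of 3.87 became 2.08 without well 132, which held 8666 CPM of S100a9 and 11711 CPM of its partner S100a8. S100a8 itself stood at 2877 CPM (2852 to 2901 CPM) against 281 CPM (276 to 286 CPM), and at 1023 CPM without well 132. RNA of these genes was present at a low level in nearly all wells: the 105 B cell wells of 4T1 at day 4 had medians of 140 CPM of S100a9 and 242 CPM of S100a8, and the 5 of day 16 had 211 and 378 CPM. Pglyrp1, an antibacterial granule protein, stood at 301 against 16.7 CPM, Wfdc21, also a neutrophil gene, at 157 against 4.32 CPM and Dgat2, an enzyme of triglyceride synthesis, at 175 against 3.23 CPM. Without well 132 these 3 stood at 158, 62.3 and 82.7 CPM.

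Of 24 measured type I interferon genes 18 were at least 2-fold lower at day 16 and 1 higher, with a median log2 ratio of −1.44. Irf7 lay between 1.87 and 3.57 CPM in the 7 wells of day 16, and between 1.32 and 1011 CPM at day 4 with a median of 13.9 CPM. Ifi44, an interferon-induced gene, lay between 1.16 and 2.99 CPM at day 16, and between 0.44 and 865 CPM at day 4 with a median of 70.5 CPM. No day 16 well was high for either gene, while the day 4 wells ran from the same low level upward. Ifi27l2a stood at 35.6 against 591 CPM and Oas1a, a sensor of double-stranded RNA, at 10.1 against 131 CPM. The B cell wells of 4T1 differed in the same direction, with a summed median of the 30 interferon genes of 964 CPM in the 105 wells of day 4 and 313 CPM in the 5 of day 16. Against this, the Ccr2-high well 152 of day 16 held 1824 CPM of Irf7 and 1460 CPM of Ifi44 with 34805 CPM of Lyz2. With only 2 Ccr2-high wells at day 16, of which 1 (well 90) carried 655 CPM of Trac, monocyte wells could not be compared over days. Over all 11 members of day 16 and 54 of day 4 the lower level was not seen for Ifi44, at 267 against 250 CPM, and Irf7 stood at 334 against 449 CPM.

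**Figure D5:**
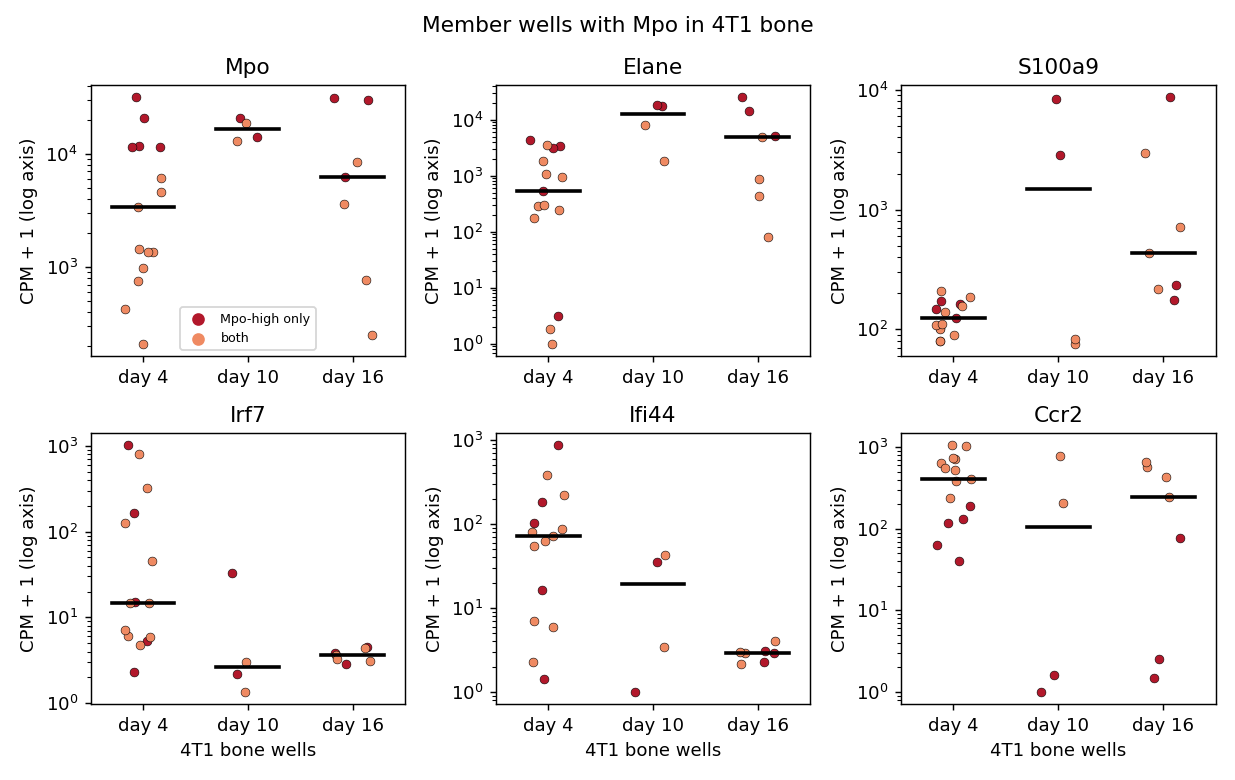
CPM + 1 (log axis) of Mpo, Elane, S100a9, Irf7, Ifi44 and Ccr2 in the member wells of 4T1 bone with at least 200 CPM of Mpo, at day 4 (15 wells), day 10 (4 wells) and day 16 (7 wells), coloured by class. Mpo and Ccr2 made the classes. Elane and S100a9 reach higher values at the later days, and Irf7 and Ifi44 stay low in the 7 wells of day 16.

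Stem and progenitor genes were lower at day 16, with 8 of 13 at least 2-fold lower, 1 higher and a median log2 ratio of −1.55. Cd34 was at or below 29.0 CPM in 6 of the 7 wells and at 420 CPM in well 120, which held 3608 CPM of Mpo with Irf8 at 2817 CPM. S phase genes (1 higher and 2 lower of 24) and G2 and M phase genes (3 higher and 2 lower of 28) were mostly within 2-fold between the days.

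The 2 fat pad members were unlike those of bone. Well 23 was Ccr2-high with 670 CPM of Ccr2, 891 CPM of F13a1 and 4074 CPM of Fn1, but with Ms4a6c and Ly6c2 at 0 CPM and 722 CPM of H2-Ab1. Well 51 held 393 CPM of F13a1 and no Mpo, Prtn3 or Ccr2. Of the 7 members with neither Mpo nor Ccr2 at 200 CPM, 3 lacked RNA of another lineage. One of these, well 110 of 4T1 day 16, held 98.1 CPM of Mpo, 174 CPM of Ccr2 and 1294 CPM of Prtn3 beside 26456 CPM of Lyz2.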

How the data were processed

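Single cells sorted as mCherry-positive were sequenced by a modified Smart-seq2 protocol, per the labels' protocols, and wells with an mCherry qPCR Ct above the authors' limit were discarded before sequencing. The authors deposited 1 table of counts of reads per gene, with 40840 rows and 1248 wells. The submitters' processing notes name the build mm10 and, with no roles, STAR 2.6.0c, Trim Galore 0.6.6 and FastQC 0.11.7, featureCounts 1.6.2, and Seurat 3.1.2, R 3.6.2 and SAMtools 1.7. The annotation and strand setting are not given in the sources used here, so that antisense partners and near-identical copies could share reads. The reads carry no molecular identifiers, and an interval covers counting error only.

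CPM were computed on 40756 gene rows, leaving out 78 ERCC rows (0.670% of counts), 2 reporter rows (0.187%) and 4 repeated date-like rows (0.0149%). Wells of 1 group correlating above 0.95 were joined as their rounded mean count. Other host wells had Krt8 and Krt18 under 500 CPM, and at least 300 CPM of pan-haematopoietic genes or 1000 CPM of haemoglobin. Counts were summed over the wells compared. Ratios were log2 of CPM plus 5, on genes with at least 20 CPM on the higher side, or 5 CPM for the gene lists. Named genes were the 12 furthest each way (8 for line and day) with a median well of at least 5 CPM on the higher side, the same direction in every group used and with wells weighted equally, plus those of the rule and of the lists. Gene lists, 30 in all, and the members were chosen with earlier results of these data known. A minimum of 5 wells a side was required. No class met it for the days, and Mpo-high wells did not for the lines, so the day comparison took all wells with Mpo and the line comparison the Ccr2-high wells. Both were chosen after the well numbers were seen. Summing, scaling and ratios were tested on simulated data.

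Alternatives were TMM factors (edgeR 4.0.16) and DESeq2 1.42.0 size factors, other amounts added, other limits, and single wells of the smaller side left out. Python 3.11.15, numpy 2.4.6, pandas 2.3.3, scipy 1.17.1, matplotlib 3.10.9 and R 4.3.3 were used.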

Additional observations from a re-analysis of the deposited data

How the results depend on the processing

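The number of members lay between 76 and 91 under other limits, and 81 of 82 were found again after thinning to 500000 counts. In members against other host wells, the count of higher genes moved from 368 to 241 with TMM factors, to 134 with 20 CPM added and to 634 without the members holding other-lineage RNA, and that of lower genes from 569 to 308 with 20 CPM added. In Mpo-high against Ccr2-high wells the higher genes moved from 1800 to 1167 with 20 CPM added. For 4T1.2 against 4T1 the lower genes moved from 1925 to 3314 with genes from 5 CPM or with no limit. For day 16 against day 4 the higher and lower genes moved from 779 and 1005 to 388 and 478 with 20 CPM added, and to 1262 and 1631 with genes from 5 CPM or with no limit. Single wells were left out on the smaller side only, which was the Mpo-high, the 4T1.2 and the day 16 wells. Leaving out 1 such well at a time gave 1721 to 1940 higher and 1698 to 1842 lower genes between the classes, 1420 to 1655 and 1913 to 2357 between the lines, and 770 to 880 and 985 to 1171 between the days. Dependence on single wells of the larger side was not tested.

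Without the members holding other-lineage RNA, the medians that turned were those of T and NK cell genes (−1.42) and Vps37b (−0.50) against other host wells, and of dendritic cell (1.13), MHC class II (1.03) and T and NK cell genes (4.04) between the classes. Those members were set apart by genes of these lists, so the turn of the list medians follows at least in part from that choice. With all groups pooled, the secondary granule median between the classes turned to 0.62. With all members in place of those with Mpo, the secondary granule and mature neutrophil medians at day 10 over day 4 were −0.53 and −1.79. At day 16 over day 4, the log2 ratio of Ifi44 was 0.0936 over all members, compared with −4.42 over those with Mpo. TMM factors moved the median of all genes by −0.28 between the classes and by −0.17 against other host wells. Of 1626 list medians under an alternative, 1290 moved by less than the spread of the list's genes divided by the square root of their number, and of 1248 log2 ratios of named genes 1115 moved by less than the spread over wells. No paired analysis was possible because the results come from no test and the well numbers only name wells. Each class or group is 1 sample, and differences between animals or plates cannot be told apart from differences between groups.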

Other observations

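Ighm, the heavy chain gene of immunoglobulin M, was present in the members, which the rule holds low in the B cell receptor gene Cd79a. Like all 15 listed B cell genes, Ighm was at least 2-fold lower in the members than in the other host wells. It lay between 0.599 and 1275 CPM in the 12 Mpo-high wells with a median of 37.1 CPM, between 13.4 and 1273 CPM in the 17 wells with both genes with a median of 200 CPM, and had a median of 166 CPM in the 46 Ccr2-high wells. The rule kept Cd79a under 100 CPM, and no member held more than 28.3 CPM of it. The highest value of Ighm among members, 2292 CPM, was in well 409 of 4T1 day 4, which carried 2608 CPM of Siglech.

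The 2 Mpo-high wells of 4T1 bone at day 10 had more Elane than Prtn3, with 18636 and 17247 CPM of Elane and 9099 and 6703 CPM of Prtn3, and less than 4 CPM of Irf8. Well 53 of that day held 12498 CPM of S100a8 with 0.60 CPM of Ccr2. In contrast, both day 10 wells with Mpo and Ccr2 held under 160 CPM of S100a8, with 1213 and 895 CPM of Irf8 and 1370 and 2199 CPM of Ly6c2.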
